A study of Rattus norvegicus with 9 samples.

Results

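Secreted Wnt antagonists, Wnt ligands and Wnt receptors were followed across 3 groups of rat hearts. The 10 genes were Sfrp1, Sfrp2, Sfrp4, Frzb, Dkk3, Wif1, Wnt5a, Wnt5b, Fzd1 and Fzd2, taken by their names, and each was found among the 35843 genes of the deposited FPKM table (reads scaled by transcript length and library size). All rats were adult male Sprague-Dawley animals. Group MI carried a permanent tie of the left anterior descending (LAD) artery and received saline by daily gavage. Group DAPA, in full MI + DAPA (1st d), had the same LAD ligation and was given the SGLT2 inhibitor dapagliflozin (DAPA) at 1 mg/kg daily from the first day. Group Sham went through the operation without the ligation and received saline. Left ventricles of 3 rats per group were sequenced at day 28. The study took molecular samples mainly from the infarct border after cutting away the scar, and from the matching site in group Sham. For the sequencing itself, its methods name left ventricles and its results name infarct myocardium in groups MI and DAPA. How much border and how much infarct these samples held is therefore not certain. Either way the tissue is a mixture of surviving muscle, fibroblasts and infiltrating cells. In such bulk samples fewer cells of a type cannot be told apart from less RNA per cell.

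Wnt proteins are secreted, lipid-modified signals that bind Frizzled receptors on neighbouring cells. With the co-receptors Lrp5 and Lrp6 they stabilise beta-catenin, and with Ror1, Ror2 or Ryk they act through branches that do not need it. Secreted antagonists hold the signal back: the Sfrp family (to which Frzb, also called Sfrp3, belongs) carries a Frizzled-like cysteine-rich domain that binds Wnts, Wif1 binds Wnts through a domain of its own, and Dkk3 is the divergent member of the Dickkopf family. In the heart the pathway is largely quiet in adult muscle and is known for its part in fibroblast activation and wound healing after infarction.

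Promoter sequences were held for 5 of the 10 genes in RefSeq (rat build GRCr8; 250 bases before to 50 after the start of transcription). The 3 shown are those of the antagonist with the largest rise, of an antagonist that rose less, and of the 1 antagonist that fell. Capitals mark CG pairs, the sites of DNA methylation.
Sfrp2: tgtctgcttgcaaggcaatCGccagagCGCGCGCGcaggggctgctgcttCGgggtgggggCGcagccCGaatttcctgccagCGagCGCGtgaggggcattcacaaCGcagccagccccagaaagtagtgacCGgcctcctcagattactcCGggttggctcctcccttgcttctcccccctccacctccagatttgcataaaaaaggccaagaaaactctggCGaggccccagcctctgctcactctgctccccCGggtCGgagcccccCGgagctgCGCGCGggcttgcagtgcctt
Frzb: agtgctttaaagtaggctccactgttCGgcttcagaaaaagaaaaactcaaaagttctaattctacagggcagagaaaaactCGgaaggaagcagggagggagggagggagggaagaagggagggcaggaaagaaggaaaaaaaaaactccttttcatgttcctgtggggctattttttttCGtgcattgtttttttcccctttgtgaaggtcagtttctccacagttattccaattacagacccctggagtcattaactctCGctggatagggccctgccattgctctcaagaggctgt
Wif1: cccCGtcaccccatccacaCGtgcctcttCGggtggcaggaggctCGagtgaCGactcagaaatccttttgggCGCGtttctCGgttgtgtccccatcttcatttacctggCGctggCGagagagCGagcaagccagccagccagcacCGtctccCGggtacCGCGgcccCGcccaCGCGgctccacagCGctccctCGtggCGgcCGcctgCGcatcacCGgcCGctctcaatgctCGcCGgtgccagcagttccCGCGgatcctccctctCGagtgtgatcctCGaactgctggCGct
They lie at chr2:171387286-171387585 on the plus strand for Sfrp2, at chr3:85772047-85772346 on the minus strand for Frzb, and at chr7:58433329-58433628 on the plus strand for Wif1. The Sfrp2 promoter held 21 CG pairs, more than 77.4% of the 33469 rat promoters of this length, and the Wif1 promoter held 32, more than 91.6%. Frzb held 4, against a median of 7. So the gene with the largest rise and the gene that fell both had CG-rich promoters, and no methylation was measured here. None of the 5 windows held, on either strand, a TATA box (TATAAA, in 14.2% of all promoters), the core of a TCF/LEF site (CTTTGA, 16.1%), an AP-1 site (TGANTCA, 7.33%) or the core of a TEAD site (GGAATG, 14.2%).

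The libraries held 13597239 to 17210909 reads recovered from the FPKM steps, but genes of the mitochondrial genome took 61.1% to 66.9% of them in group Sham, 7.07% to 19.1% in group MI and 17.5% to 32% in group DAPA. The other genes were thus read least deeply in group Sham, at 5702454 to 6570698 reads, against 12635945 to 13171891 in group MI and 11440726 to 12082280 in the DAPA-treated rats. Cardiomyocyte markers were high in all groups (8 genes, summed FPKM of 5530 to 8120 in group Sham, 1510 to 7610 in group MI and 5750 to 11900 in group DAPA), as the tissue label requires. The rat MI replicate 2 stood apart. Its 8 cardiomyocyte markers summed to 1510 against 3940 and 7610 in the other MI rats, and its 5 measured B and plasma cell markers to 3110 against 25.3 and 542. Its T cell markers summed to 89.5 against 9.39 and 23.8. Calls of genes that rest on this rat are also given without it, whereas marker medians and differences within a rat are given only with it. Fibroblast markers outside the matrix (8 genes) summed to 47 to 50.3 in group Sham, 186 to 344 in group MI and 147 to 212 in group DAPA. Macrophage markers (8 genes) summed to 123 to 435, 1710 to 3110 and 949 to 1700 in the same order, and endothelial markers (6 genes found) to 424 to 692, 202 to 255 and 266 to 300. No fibroblast, macrophage or endothelial marker was at 0 in every rat of a group.

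To see what infarction changed, group MI was set against group Sham. Of the 10 genes, 7 were higher in group MI (Sfrp1, Sfrp2, Sfrp4, Frzb, Dkk3, Fzd1 and Fzd2) and Wif1 was lower, at a limma p under 0.05 before adjustment together with a log2 fold change beyond 1 in size, on log2(FPKM + 1). Wnt5b did not pass, and Wnt5a was too low to be tested, since a gene entered the test only where 3 or more of the 6 rats reached an FPKM of 1. The same 7 and 1 had a Benjamini-Hochberg adjusted p under 0.05. Over all 13485 genes tested, 12.1% were called higher and 10.3% lower by the first rule, and 19.5% higher and 19.5% lower by the adjusted p. The median log2 fold change of the 9 genes tested was 2.43, beside -0.005 over all genes tested. Sfrp4 passed the filter only through the infarcted rats and Wif1 only through group Sham, so both had to differ, and these counts describe the 9 genes without testing them as a set. The rats of the groups did not overlap in 8 of the 10 genes on the higher side (Wnt5a included) and in Wif1 on the lower side, against 27.1% and 27.5% of all genes tested.

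**Figure D1:**
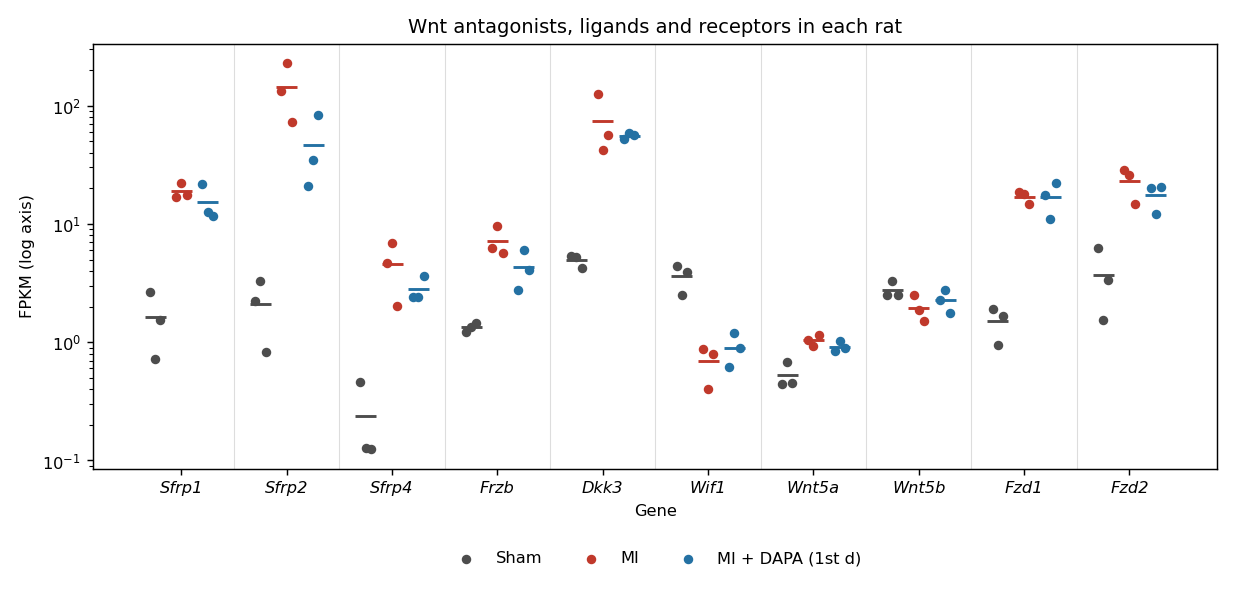
FPKM of each gene (log axis) in each rat, by group (DAPA being MI + DAPA (1st d)), with points for rats and lines for the means of 3 rats. Sfrp2 ran from 0.824 to 3.29 in group Sham and from 72.3 to 228 in group MI, Wif1 ran the other way, and the Wnt5b points of all groups overlap.

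Among the antagonists, Sfrp2 changed most. This Sfrp family member is made mainly by fibroblasts and other stromal cells. Its FPKM was 2.24, 3.29 and 0.824 in Sham replicates 1 to 3, 133, 228 and 72.3 in the MI rats, and 21.1, 35 and 83.5 in the DAPA-treated rats. Every infarcted rat lay above every sham rat, and the lowest MI value fell inside the range of the treated rats. The log2 fold change in group MI vs. group Sham was 5.48 ± 0.46 (SE, adjusted p = 0.000953), and the ratio of the mean FPKM was 68.1. Without MI replicate 2 the log2 fold change was 5.07.

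Sfrp1, of the same family, stood at 2.65, 0.726 and 1.55 in group Sham, at 16.9, 22 and 17.5 in group MI and 21.6, 12.7 and 11.7 in group DAPA. The infarcted rats, treated or not, were all above the sham rats. Its log2 fold change in group MI vs. group Sham was 2.96 ± 0.28 (SE, adjusted p = 0.00105). Sfrp4, a further member of the family, was at 0.458, 0.127 and 0.124 in group Sham, values that rested on 5 to 22 reads. It reached 4.71, 6.94 and 2.03 in group MI, and the rats of group DAPA stood at 2.4, 2.41 and 3.6. The groups Sham and MI did not overlap, with a log2 fold change of 2.07 ± 0.36 (SE, adjusted p = 0.00551). At values this low the pseudocount of 1 compresses the change, which was 3.77 with a pseudocount of 0.1 and 4.26 with limma-voom on the recovered reads.

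Frzb differed from the other Sfrp genes in its even sham level of 1.22, 1.35 and 1.45. It stood at 6.26, 9.68 and 5.68 in group MI, a log2 fold change of 1.78 ± 0.22 (SE, adjusted p = 0.00185), and at 2.77, 6.05 and 4.1 in group DAPA. Its treated rats reached into the range of group MI from below. Dkk3 was on average the highest of the antagonists in group Sham already, at 5.32, 5.23 and 4.24, and stood at 125, 42.2 and 56.7 in group MI. The log2 fold change was 3.52 ± 0.37 (SE, adjusted p = 0.0013). The treated rats were close together at 52, 58.8 and 56.5, inside the much wider range of group MI.

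Wif1 was the only 1 of the 6 antagonists that was lower in group MI. Its FPKM was 4.39, 2.52 and 3.95 in group Sham, 0.877, 0.404 and 0.791 in group MI and 0.622, 1.19 and 0.888 in group DAPA. No infarcted rat reached the lowest sham rat. The log2 fold change in group MI vs. group Sham was -1.44 ± 0.24 (SE, adjusted p = 0.00481), from 58 to 103 reads in group Sham and 16 to 38 reads in group MI. With a sham rat left out, Wif1 no longer had 3 rats at an FPKM of 1 and could not be tested. Endothelial markers moved the same way (4 of the 6 tested were called lower, median log2 fold change -1.28), and their part in the fall of Wif1 was not tested.

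Neither ligand was called, Wnt5a because it was too low to be tested. Wnt5a and Wnt5b are close relatives that signal mostly without beta-catenin. Wnt5a stood at 0.44, 0.683 and 0.455 in group Sham, 1.05, 0.93 and 1.15 in group MI and 0.837, 1.02 and 0.897 in group DAPA. Groups MI and Sham did not overlap, with a difference of 0.42 in mean log2(FPKM + 1) between them (exact permutation p = 0.1, two-sided, the smallest that 3 rats against 3 allow). The ratio of the mean FPKM was 1.98, which the pseudocount compresses at this level. Without the filter on low values limma gave Wnt5a a p of 0.0312 and an adjusted p of 0.107. Rescaled to the sum of all genes, the log2 fold change was 0.97 with an adjusted limma p of 0.00138, on a scale that shifted the median gene by 1.265. Wnt5b stood at 2.49, 3.29 and 2.51 in group Sham and 2.49, 1.87 and 1.52 in group MI, which touch, and at 2.26, 2.76 and 1.78 in the DAPA-treated rats. Its log2 fold change was -0.35 ± 0.21 (SE, 95% interval -0.84 to 0.13, adjusted p = 0.214).

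Both receptors rose. Fzd1 and Fzd2 are closely related Frizzled receptors that bind several Wnts, Wnt5a among them for Fzd2. Fzd1 stood at 1.91, 0.952 and 1.65 in group Sham, 18.5, 17.8 and 14.6 in group MI and 17.4, 10.9 and 22.2 in group DAPA. Fzd2 stood at 6.3, 1.53 and 3.33, then 28.8, 25.9 and 14.7, then 20.1, 12.1 and 20.4. For both genes the sham rats were below every infarcted rat, and the treated and untreated infarcted rats overlapped. The log2 fold change in group MI vs. group Sham was 2.85 ± 0.20 for Fzd1 (SE, adjusted p = 0.000953) and 2.43 ± 0.41 for Fzd2 (SE, adjusted p = 0.00494).

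The direction of the 7 higher genes did not depend on how the libraries were scaled. They were also called when the FPKM values were rescaled to the sum of all genes, to the sum without the mitochondrial genome or to the 75th percentile. Rescaling to the sum of all genes, which includes the mitochondrial transcripts, shifted the median gene by 1.265 (log2) in group MI vs. group Sham and called 8565 genes higher and 173 lower in place of 1634 and 1390. On that scale Wif1 stood at -0.47 and lost its call, and Wnt5b turned to 0.68, both still below the median gene.

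The order of the genes by FPKM, which is per transcript length, changed with infarction. In group Sham, Dkk3 (4.93 on average), Fzd2 (3.72), Wif1 (3.62) and Wnt5b (2.76) came first and Sfrp4 (0.236) last. The sham rats overlapped between all neighbours in this order except Frzb (1.34) and Wnt5a (0.526). In group MI, Sfrp2 (144) and Dkk3 (74.5) came first, followed by Fzd2 (23.1), Sfrp1 (18.8) and Fzd1 (17), with Wif1 (0.691) last. Sfrp2 overlapped with Dkk3, and Fzd2, Sfrp1 and Fzd1 overlapped with each other, but Dkk3 lay above Fzd2 in every rat and Wif1 lay below Wnt5a. In group DAPA, Dkk3 (55.7) stood before Sfrp2 (46.5), which overlapped. Fzd2 (17.5), Fzd1 (16.9) and Sfrp1 (15.3) came next, and Wif1 (0.901) was again last and overlapped with Wnt5a (0.919).

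The make-up of the antagonist transcripts, a description chosen after the values were seen, shifted accordingly. The 6 antagonists summed to an FPKM of 12.1 to 16.3 in group Sham, 155 to 309 in group MI and 100 to 160 in group DAPA, with no overlap between infarcted and sham rats. Wif1 made up 27%, 19% and 32.6% of this sum in the sham rats, and 0.131% to 0.51% in group MI. Sfrp2 made up 13.8%, 24.8% and 6.79% in group Sham, 46.4%, 73.7% and 46.6% in group MI, and 21%, 30.1% and 52.1% in group DAPA. Dkk3 was the largest share in every sham rat and in treated replicates 1 and 2, and Sfrp2 was the largest in every MI rat. The sum of the antagonists was 1.98 to 5.34 times that of both receptors in group Sham, 5.28 to 7.08 times in group MI and 2.67 to 5.05 times in the treated rats. The ratios of groups Sham and MI overlap, and so do those of groups Sham and DAPA, whereas those of groups MI and DAPA do not. That last gap was narrow, at 5.28 against 5.05, and was not tested. Of all single genes tested, 7.16% lay lower in group DAPA than in group MI without overlap.

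**Figure D2:**
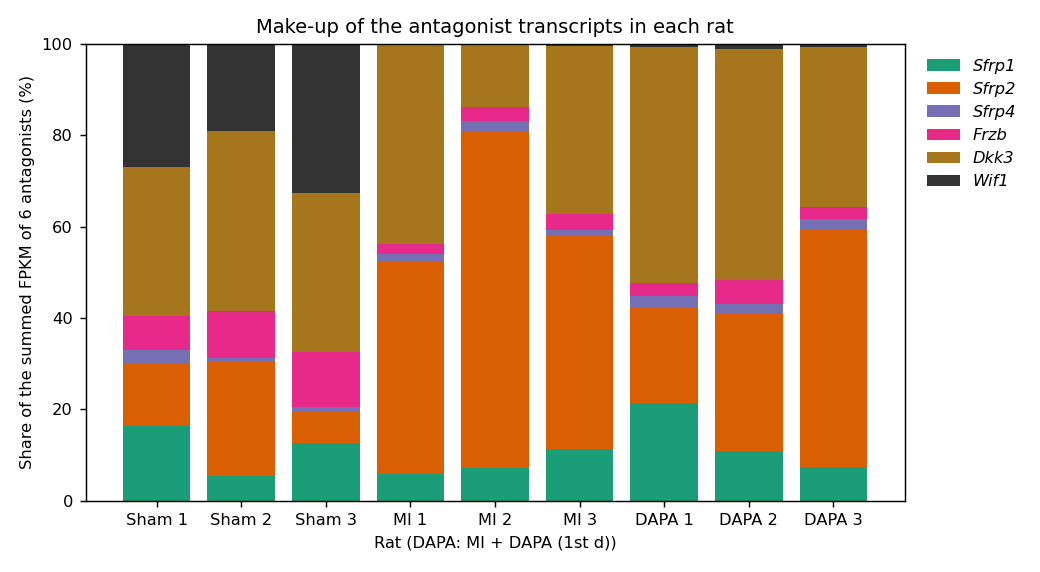
Share (%) of each of the 6 antagonists in their summed FPKM, 1 bar per rat. Wif1 takes 19% to 32.6% of the bar in the sham rats and at most 1.03% in the others, while Sfrp2 takes 46.4% to 73.7% in group MI.

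Related genes were also compared within each rat. These differences still depend in part on the scaling of the library, through the pseudocount, above all for low genes. Sfrp2 minus Sfrp1, on log2(FPKM + 1), was -0.17, 1.31 and -0.48 in group Sham, 2.90, 3.31 and 1.98 in group MI and -0.03, 1.39 and 2.73 in group DAPA. Sfrp2 was thus ahead of Sfrp1 in every MI rat by more than in any sham rat, and the treated rats spread over both ranges. Wnt5b minus Wnt5a was 1.28, 1.35 and 1.27 in group Sham, 0.77, 0.57 and 0.23 in group MI and 0.83, 0.89 and 0.55 in the treated rats. The lead of Wnt5b over Wnt5a was smaller in all 6 infarcted rats than in the sham rats. Frzb minus Sfrp1 averaged -0.11 in the sham rats, -1.29 in group MI and -1.62 in group DAPA, without overlap between sham and infarcted rats. Sfrp4 minus Frzb differed by 0.29 between groups MI and Sham and overlapped (exact permutation p = 0.4). With a pseudocount of 0.1 that difference was 1.47, and that of Wnt5b minus Wnt5a was -1.37 in place of -0.78. Fzd2 minus Fzd1 differed by -0.42 between groups MI and Sham and overlapped (exact permutation p = 0.4). Sfrp2 minus Sfrp1, Wnt5b minus Wnt5a and Frzb minus Sfrp1 each had an exact permutation p of 0.1 in group MI vs. group Sham and an adjusted exact p of 0.25 over 5 pairs and 3 comparisons.

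Fibroblast markers rose with infarction as well: 7 of the 8 were called higher in group MI, with a median log2 fold change of 1.99. Set against the mean of these 8 markers in the same rat, Sfrp2 still stood 3.37 higher after infarction on the log2 scale, Dkk3 was 1.41 higher, Sfrp1 0.85 and Fzd1 0.74, each without overlap between the rats. Sfrp4 kept the same distance from the markers, with a difference of -0.04 and overlapping rats, and Fzd2 also overlapped, with a difference of 0.32. Frzb was lower relative to the markers, at -0.33, and Wnt5a at -1.69, Wnt5b at -2.46 and Wif1 at -3.55 were further below, none with overlap. Each difference without overlap had an exact permutation p of 0.1, or 0.214 adjusted over 10 genes and 3 comparisons. At a pseudocount of 0.1 the difference was 1.46 for Sfrp4 and -0.01 for Frzb, so the order of these low genes depends on the pseudocount. Whether more fibroblasts account for the higher genes was not tested.

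**Figure D3:**
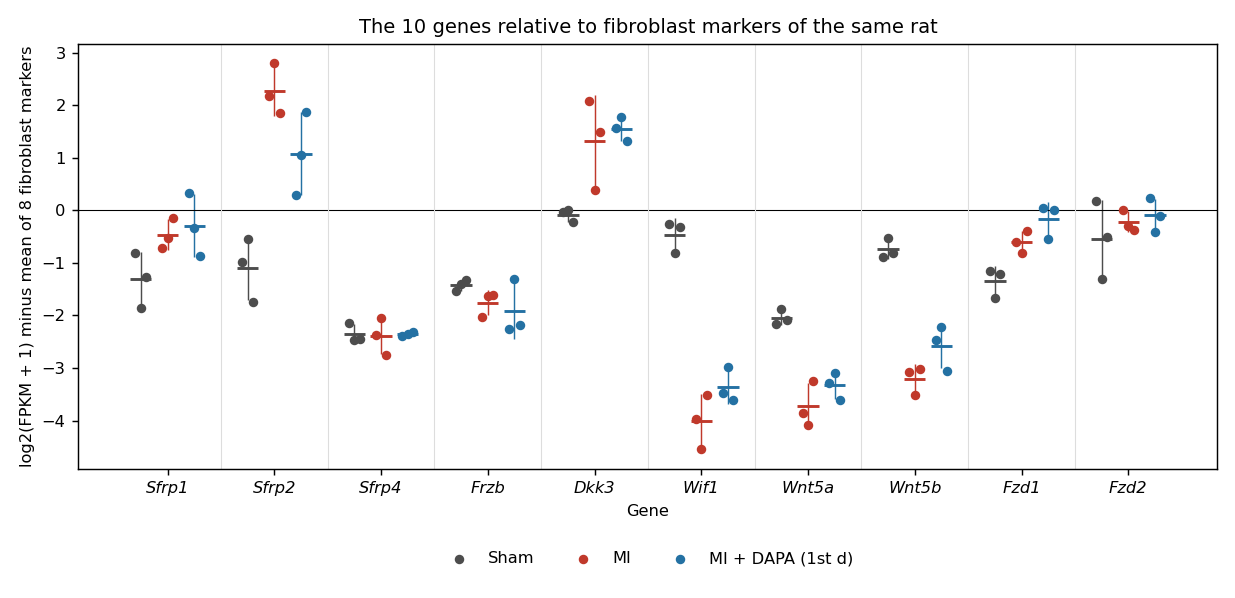
Level of each gene minus the mean of 8 fibroblast markers of the same rat, both on log2(FPKM + 1), with points for rats, lines for means and bars for the SD of 3 rats. Sfrp2 and Dkk3 lie higher in the MI rats than in the sham rats, by 3.37 and 1.41, and Wif1, Wnt5a and Wnt5b lie lower.

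To see what DAPA from the first day changed in infarcted ventricle, group DAPA was set against group MI. Sfrp2 was the only one of the 10 genes called, and it was lower in the treated rats. Its log2 fold change was -1.69 ± 0.58 (SE, 95% interval -3.06 to -0.32, unadjusted limma p = 0.0229, adjusted limma p = 0.558, exact permutation p = 0.2). The mean FPKM was 46.5 ± 32.8 (SD, n = 3) against 144 ± 78.4 (SD, n = 3). The rats overlapped, since treated replicate 3 at 83.5 lay above MI replicate 3 at 72.3. Without MI replicate 2 the log2 fold change was -1.28 with a limma p of 0.0627. Leaving out MI replicate 1 gave a p of 0.0515, treated replicate 1 a p of 0.0775 and treated replicate 2 a p of 0.0644, so the call was lost without any 1 of these 4 rats. Relative to the fibroblast markers, of which 0 of 8 were called higher and 1 lower in this comparison (median log2 fold change -0.48), the difference of Sfrp2 between the treated and the MI rats was -1.20 (exact permutation p = 0.2). Other markers moved in this comparison too. Cardiomyocyte markers summed to 5750 to 11900 in group DAPA against 1510 to 7610 in group MI (2 of 8 called higher, median log2 fold change 1.27). The median was -1.01 for the matrix genes (1 of 6 called lower), -0.78 for the macrophage markers (0 of 8 called) and -1.51 for the T cell markers (1 of 4 called lower). It was -3.67 for the B and plasma cell markers (1 of 2 tested called lower) and -0.94 for epicardial and mesothelial markers (1 of 3 tested called lower). For the scar, smooth muscle, Schwann cell and endothelial lists it ran from -0.47 to 0.33, with none called. The part of these shifts in the lower Sfrp2 was not tested.

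Of the 9 genes tested, 8 had a negative log2 fold change in group DAPA vs. group MI, with a median of -0.32 beside -0.018 over all genes tested. No gene of the 9 had an adjusted limma p under 0.05, and 1 had an unadjusted limma p under 0.05 (with limma-voom on the recovered reads, 0 and 2). Over all 13251 genes tested, 0.951% were called higher and 1.11% lower, and by the adjusted p 0% were called higher and 0% lower. No gene of the 10 was free of overlap between these groups, against 6.63% of all genes on the higher side and 7.16% on the lower side. Frzb came next to Sfrp2, with a log2 fold change of -0.64 (95% interval -1.31 to 0.02). The intervals of the others left room for changes in either direction: -0.89 to 0.26 for Sfrp1, -1.30 to 0.39 for Sfrp4, -1.15 to 0.63 for Dkk3, -0.66 to 0.55 for Fzd1 and -1.08 to 0.36 for Fzd2. For the ligands they were narrower, at -0.52 to 0.34 for Wnt5a and -0.34 to 0.63 for Wnt5b. Wif1 was too low to be tested here, at a mean of 0.901 against 0.691. The sign of Dkk3 turned to 0.18 without MI replicate 1, which held the highest Dkk3 value, and that of Fzd1 turned to 0.21 without treated replicate 2.

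**Figure D4:**
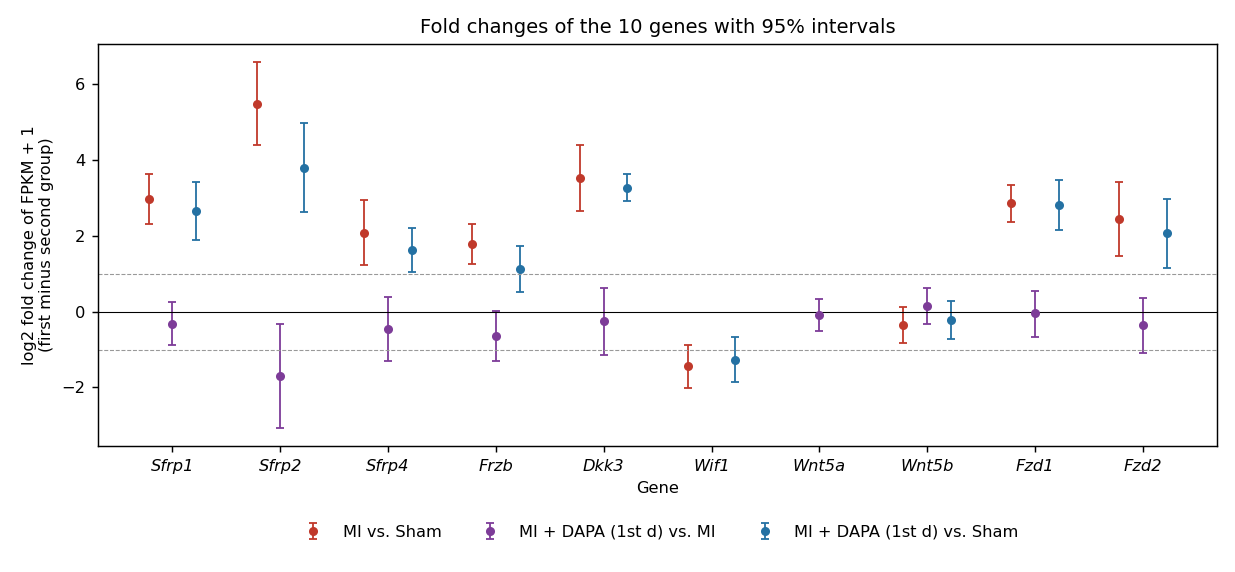
Log2 fold change of each gene on log2(FPKM + 1) in the 3 comparisons, with the 95% interval from limma. Dashed lines mark a change of 1 in size and genes that were not tested in a comparison have no point. The intervals of DAPA-treated against MI rats cross 0 for all genes tested but Sfrp2, whose interval runs from -3.06 to -0.32.

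The treated rats were also set against group Sham, to see which differences remained under treatment. This comparison shares its rats with the others and is no independent evidence. The same 7 genes were called higher and Wif1 lower, by either rule, while 9.54% of the 13359 genes tested were called higher and 8.16% lower, or 14.5% and 14.1% by the adjusted p. Again 8 of the 10 genes did not overlap on the higher side and 1 on the lower side, against 23.2% and 23.3% of all genes tested. Here too Sfrp4 passed the filter only through the treated rats, so it had to differ, and these counts are a description. The log2 fold changes ran from 1.13 ± 0.26 for Frzb (SE, adjusted p = 0.0179) to 3.79 ± 0.51 for Sfrp2 (SE, adjusted p = 0.00318). That of Dkk3 was 3.26 ± 0.15, the smallest error of the 9 genes tested (adjusted p = 0.000556), and that of Wif1 was -1.27 ± 0.25 (adjusted p = 0.0106). Frzb stood at 0.91 and lost its call without treated replicate 2, whose value was the highest of its group.

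The rest of the pathway was read from lists of 85 genes, of which 83 were found by name. In group MI vs. group Sham 48 could be tested, and 10 were called higher and 2 lower (by the adjusted p alone, 14 and 7). Over all genes tested, 12.1% were called higher and 10.3% lower (19.5% and 19.5% by the adjusted p). Rescaled to the sum of all genes, 36 were called higher. Without MI replicate 1, 2 or 3 the number was 8, 6 or 7. Receptors and co-receptors were 5 of the 10 higher genes. Fzd7, a Frizzled receptor, averaged 0.275 in group Sham and 5.49 in group MI (log2 fold change 2.35 ± 0.24, SE). Ptk7, a co-receptor of the planar cell polarity branch, averaged 0.832 and 11.8 (2.78 ± 0.34, SE). Ror1 and Ror2, the receptor tyrosine kinases that bind Wnt5a, went from 0.366 to 2.09 and from 0.466 to 2.89, and the beta-catenin co-receptor Lrp6 from 2.48 to 7.44 (1.27 ± 0.17, SE). Of 14 other receptor genes listed, 9 were tested, and these 5 were called higher and none lower. Fzd7, Ror1 and Ror2 had no sham rat at an FPKM of 1 and entered the test only through the MI rats, so they had to differ, and the count is a description. These genes could not be tested with any MI rat left out, which lowered the number of higher genes.

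Wls, which carries Wnts to the cell surface for secretion, averaged 6.95 in group Sham and 25.6 in group MI (log2 fold change 1.78). Of the surface inhibitors, Apcdd1 (1.80) and Kremen1 (1.02), a Dickkopf receptor, were called higher and none of the 7 tested was called lower. The R-spondins, which enhance Wnt signals, divided. Rspo1 averaged 3.86 in group Sham and 12.7 in group MI, whereas Rspo4 ran from 2.13 to 7.79 in group Sham and from 0 to 0.0753 in group MI. Rspo4 entered the test only through the sham rats, so it had to differ, and its call as lower is a description. Of 17 other Wnt ligands only Wnt11, named here after its values were seen, was high enough to be tested in group MI vs. group Sham, and at a log2 fold change of -0.60 (95% interval -1.02 to -0.19) it was not called.

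Inside the cell few genes passed the criteria. Over all genes tested 12.1% were called higher and 10.3% lower, so such small counts do not set these lists apart. Of 12 genes of the beta-catenin route tested, Dvl1, a Dishevelled scaffold, was called lower (20.4 in group MI against 43.6, log2 fold change -1.05). Ctnnb1, the gene of beta-catenin itself, had a log2 fold change of 0.11 (95% interval -0.53 to 0.75). Of the 7 target genes tested, only Ccn5 was called, at 2.82 in group Sham and 236 in group MI (6.14 ± 0.52, SE). By the adjusted p alone, 2 of these 7 were higher and 2 lower, and 1 and 1 of the 12 genes of the route. The shares over all genes tested were 19.5% and 19.5%. Axin2, the most used readout of beta-catenin signaling, stood at 1.12 ± 0.516 in the sham rats, 1.38 ± 0.568 in group MI and 0.686 ± 0.295 in group DAPA (SD, n = 3), with a log2 fold change of 0.17 in group MI vs. group Sham (95% interval -0.50 to 0.84). Lef1, a transcription factor of the pathway, was too low to be tested, with means of 0.107, 0.809 and 0.377. None of the 6 planar cell polarity genes tested was called.

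In group DAPA vs. group MI, 50 of these genes were tested, and only Ptk7 was called. Over all genes tested, 0.951% were called higher and 1.11% lower, and 7.16% lay lower without overlap. Ptk7 averaged 5.12 in the treated rats against 11.8, without overlap (log2 fold change -1.07 ± 0.37, SE, unadjusted limma p = 0.0245, adjusted limma p = 0.558, exact permutation p = 0.1). The call was absent without MI replicate 2 or treated replicate 2. No gene was called higher, and limma gave an unadjusted p under 0.05 to 1 higher gene (Wnt11) and 2 lower genes (Ptk7 and Ror2). None of them had an adjusted p under 0.05. In group DAPA vs. group Sham, 8 of 49 were called higher and 3 lower, beside 9.54% and 8.16% of all genes tested. Some of these, Fzd7, Ror1 and Rspo4 among them, entered the test only through the group where they were high and so had to differ. Such genes could not be tested with any rat of that group left out, which lowered the counts that follow. The higher genes were 22 when rescaled to the sum of all genes, 4 without treated replicate 1 and 5 without treated replicate 3, and the lower genes were 1 with that rescaling, 0 without Sham replicate 1 and 1 without Sham replicate 3.

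**Figure D5:**
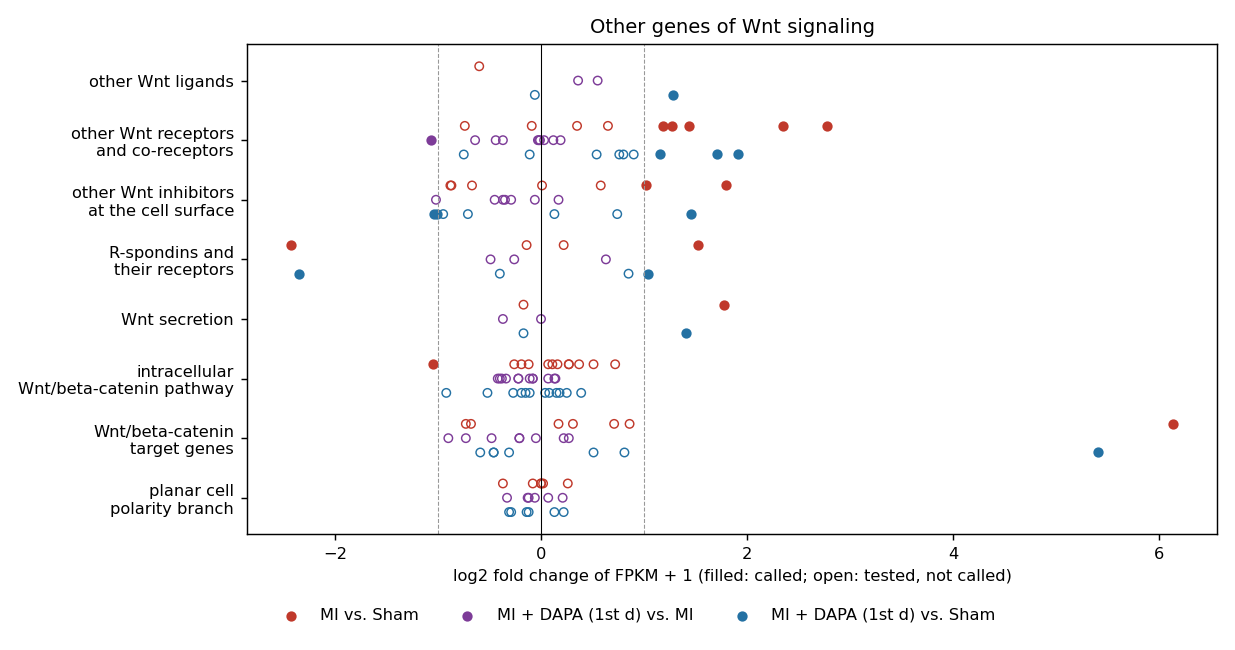
Log2 fold change on log2(FPKM + 1) of the other Wnt genes tested, by list, in the 3 comparisons. Filled points were called. Ccn5 lies at 6.14 and 5.41, Rspo4 at -2.43 and -2.35, and the DAPA-treated against MI points have 1 filled point, Ptk7.

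Genes with the most similar course over the 9 rats were sought among 12943 genes outside the lists, by the mean absolute difference of centred log2(FPKM + 1). The closest to Sfrp1 were Tsku, Steap3 and Timp2 (0.25 to 0.27), and Timp2, an inhibitor of matrix metalloproteinases, was also among the 3 closest to Fzd1, with B3gnt9 and Mxra8. Those closest to Sfrp2 were the complement gene C7 (0.38), LOC103689965 and Cd4, at a larger distance than for any other of the 10 genes. The distance is not scaled to the size of a gene's change, which was largest for Sfrp2. Sfrp4 ran closest to Htra3, Zfp385a and B4galt5, Frzb to AABR07012023.1, Tgfbi and Pde3b, Dkk3 to Clec11a, C1qtnf5 and Angptl2, and Fzd2 to Pqlc3, Cd14 and Nbl1. For Wif1 the closest was Pparg (0.09), at 10.2 in the sham rats, 3.55 in group MI and 4.29 in group DAPA, followed by the endothelial transcription factor Sox7 and LOC102555457. Wnt5a ran closest to Itpa, Klhdc10 and Eri3 and Wnt5b to Tmem175, Gjc1 and Topors (0.06 to 0.08). The distances describe these 9 rats and share their libraries and depth.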

How the data were processed

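Left ventricles of 9 rats, 3 per group, were sequenced after poly-A selection. The authors deposited a table of FPKM values with a column for each rat, and per the labels used HISAT2 2.0.5, StringTie 1.3.3b and featureCounts 1.5.0-p3. The genome build is not given in the sources used here. The labels do not say what the pair of names given to each sample stands for. Columns were matched to samples by name, and 0 columns were left out. The authors had divided the values by length and by library denominators that are not proportional to the reads. Whole reads (within 0.02) were recovered for 100% of 18896 genes seen in at least 4 libraries.

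Here limma 3.58.1 (R 4.3.3, prior variance following mean expression) compared 2 groups at a time on log2(FPKM + 1), for genes with 3 or more rats at an FPKM of 1. A gene was called at a p under 0.05, taken as unadjusted, and a log2 fold change beyond 1 in size. These are the study's criteria, which it applied to results of DESeq2 and not of limma. Adjusted p-values are Benjamini-Hochberg values over all genes tested. Fold changes of log2(FPKM + 1) understate the change of low genes. Two-sided exact permutation tests served for single values, and p-values measure the spread between 3 rats per group. On data simulated for group MI vs. group Sham, 91.1% of 191 genes changed 4-fold were called among 13673 tested, 0 in the wrong direction. Of the unchanged genes 62 were called. The simulation gave every gene the same dispersion, so 91.1% does not hold for genes as variable between rats as Sfrp2.

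Named were the 10 genes, the called genes of the other Wnt lists in group MI vs. group Sham or group DAPA vs. group MI, Axin2, Ctnnb1, Lrp6 and Lef1, and the 3 most similar genes of each. The genes and lists were chosen with earlier results of these data known. Alternatives were other pseudocounts, filters, scalings, fits and left-out rats. Pecam1 and Cd79a, Znrf3 and Axin1 were not found by name and not analysed here. Python 3.11.15 was used for the rest.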

Additional observations from a re-analysis of the deposited data

How the results depend on the processing

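The count of 7 higher genes in group MI vs. group Sham and in group DAPA vs. group Sham was 7 under every pseudocount, filter, scaling and fit tried, and 6 to 7 and 5 to 7 with single rats left out, when Sfrp4 no longer passed the filter without 1 of the infarcted rats and, without treated replicate 2, Frzb also lost its call at 0.91. The count of lower genes was 0 in place of 1 in both comparisons when rescaled to the sum of all genes. It was 0 to 1 in group MI vs. group Sham with single rats left out, because without a sham rat Wif1 had too few values to be tested. The Sfrp2 call in group DAPA vs. group MI made 1 gene lower, and 0 by the adjusted p and 0 to 1 with single rats left out. Reversed signs were those of Wnt5b when rescaled to the sum of all genes (0.68 in group MI vs. group Sham, -0.12 and 0.56 in the comparisons of treated rats with groups MI and Sham) and of Dkk3 and Fzd1 in group DAPA vs. group MI with single rats left out (-0.59 to 0.18 and -0.27 to 0.21; positive without MI replicate 1 for both and without treated replicate 2 for Fzd1). None was called, and the cause was not tested.

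The replicate numbers do not mark shared animals, and deviations of same-numbered rats correlated at -0.304 to 0.195, so they were not taken as pairs. In a fit with the replicate number as block, the counts were again 7 and 1 for group MI vs. group Sham and 0 and 1 for group DAPA vs. group MI, where Sfrp2 stood at -1.69 with a limma p of 0.0446. The other Wnt genes called lower in that comparison went from 1 to 0 under this block. Depth limits Sfrp4, whose sham values rest on 5 to 22 reads.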
